A study of Mus musculus with 6 samples.

Results

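The MYC, MAX and MXD network is a set of basic helix-loop-helix leucine zipper transcription factors that compete for the same partner and the same DNA site. It was followed here in cDNT, mouse T cells lacking CD4 and CD8 that were converted in culture from CD4+CD25- T cells, and compared between cells kept with and without IL-10. The network was taken as 9 genes of the deposited count table: the activators Myc and Mycn, the shared partner Max, and the repressors Mxd1, Mxd3, Mxd4, Mxi1, Mnt and Mga. All 9 were among the 29393 genes of the table, and all 9 were among the 14916 genes with enough counts to be tested.

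MYC and MYCN activate transcription only as heterodimers with MAX, which bind the E-box CACGTG. The MXD proteins (MXI1 is one of the family), MNT and MGA also dimerize with MAX, occupy the same E-boxes and recruit repressor complexes. In T cells, MYC is induced by antigen receptor and cytokine signals and drives growth and proliferation, whereas MXD1 is best known for rising when cells stop dividing and differentiate.

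Both groups were adult C57BL/6 cells sorted as double negative T cells, which the labels assign to spleen. W/ IL-10 cells received IL-10 at 50 ng/ml for 24 h and W/O IL-10 cells received none. The study's methods add anti-CD3/CD28 antibodies and describe the cells as T cells of spleen and lymph nodes grown on mature dendritic cells in IL-2 before a final sort. Each group had 3 libraries. The series' design text mentions duplicate sequencing, and no source says whether the 3 libraries came from separate mice or cultures, so p-values measure only the spread between libraries.

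Total counts were 21619420 to 23967088 per library. A floor of 3 counts corresponded to 0.125 to 0.139 CPM (counts relative to the library total, after scaling by TMM factors), which covers counting error only. All 9 T cell markers were tested, with a summed level of 2904 to 3346 CPM W/O IL-10 and 3756 to 3843 CPM W/ IL-10. Cd4 was at 1.12 to 1.55 CPM W/O IL-10 and 0.35 to 1.2 CPM W/ IL-10. Cd8a was not near 0, although the label is double negative. It was at 95.7 to 119 CPM W/O IL-10 and 138 to 168 CPM W/ IL-10. In bulk RNA, fewer cells of a type and less RNA per cell cannot be told apart. Genes known to respond to IL-10 checked the labels: the STAT3 target Socs3 was higher W/ IL-10 (log2 fold change 1.82, adjusted p = 0.00102, edgeR), as was Bcl3 (1.69, adjusted p = 0.000202).

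Sequence around the start sites is shown for Mxd1, the member that changed, and for the members with an E-box of their own. It comes from the RefSeq annotation of GRCm38.p6, which held windows of 300 bases (250 before and 50 after a start) for 8 of the 9 members, 10 windows in all. Myc had no window. The 250 bases before the Mxd1 start, chr6:86669160-86669409 on the minus strand, carry 4 CCAAT boxes (CCAAT or ATTGG, both strands), printed in capitals.
Mxd1: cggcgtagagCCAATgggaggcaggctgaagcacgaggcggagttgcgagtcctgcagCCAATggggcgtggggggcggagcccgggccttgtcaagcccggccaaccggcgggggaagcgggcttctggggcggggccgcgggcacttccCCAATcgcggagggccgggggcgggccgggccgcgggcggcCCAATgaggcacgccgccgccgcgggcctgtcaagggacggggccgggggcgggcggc
This stretch also holds 6 GC boxes (GGGCGG or CCGCCC, of which 1 overlaps the next and 0 overlap a CCAAT box) and no CACGTG. Of all 32851 windows, 37.4% hold a CCAAT box and 35.7% a GC box. Among the member windows, the CCAAT box was in 2 of 10 (Mxd1 and Mxd4) and the GC box in 9 of 10.

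The E-box CACGTG, which reads the same on both strands, was found in the windows of Max, Mnt and Mxd4. It is shown in capitals within 30 bases for each, because these are network members whose own start regions carry the letters that the network binds.
Max: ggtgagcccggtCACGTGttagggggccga
Mnt: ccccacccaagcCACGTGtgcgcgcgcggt
Mxd4: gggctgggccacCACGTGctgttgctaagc
The Max stretch is chr12:76962234-76962263 (minus strand), the Mnt stretch chr11:74830789-74830818 (plus strand) and the Mxd4 stretch chr5:34187912-34187941 (minus strand). The first base of the E-box lies at position -3 from the RefSeq start in Max, -123 in Mnt and -219 in Mxd4. The RefSeq start of Max lies upstream of the gene end used below (GENCODE M21, chr12:76962201). Transcripts of that annotation do not hold the last bases of the Max window, so the position in Max depends on the annotation. E-boxes occur in 7.15% of all windows and in 25.2% of the 103 windows of the MYC target genes listed further on. The STAT-type letters TTCNNNGAA were in 0 of the 10 member windows and in 8.3% of all windows, which says only that these letters are absent from these windows.

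Mxd1 was the network gene that changed with IL-10. It was 2.43-fold higher W/ IL-10, while none of the other 8 members passed the test. Of the 9 members, 1 passed an adjusted p-value under 0.05 (edgeR quasi-likelihood test, Benjamini-Hochberg adjustment over 14916 genes), beside 2.19% of all genes tested. That member was higher, beside 1.21% of all genes called higher and 0.979% called lower. It also passed the fold change of 1.5, as 1.45% of all genes did. The 2 groups did not overlap in 3 of 9 members (Mxd1, Myc and Mxd3), which is 33.3% against 22.6% of all genes tested. The median log2 fold change was 0.011 over the members and 0.0063 over all genes.

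**Figure D1:**
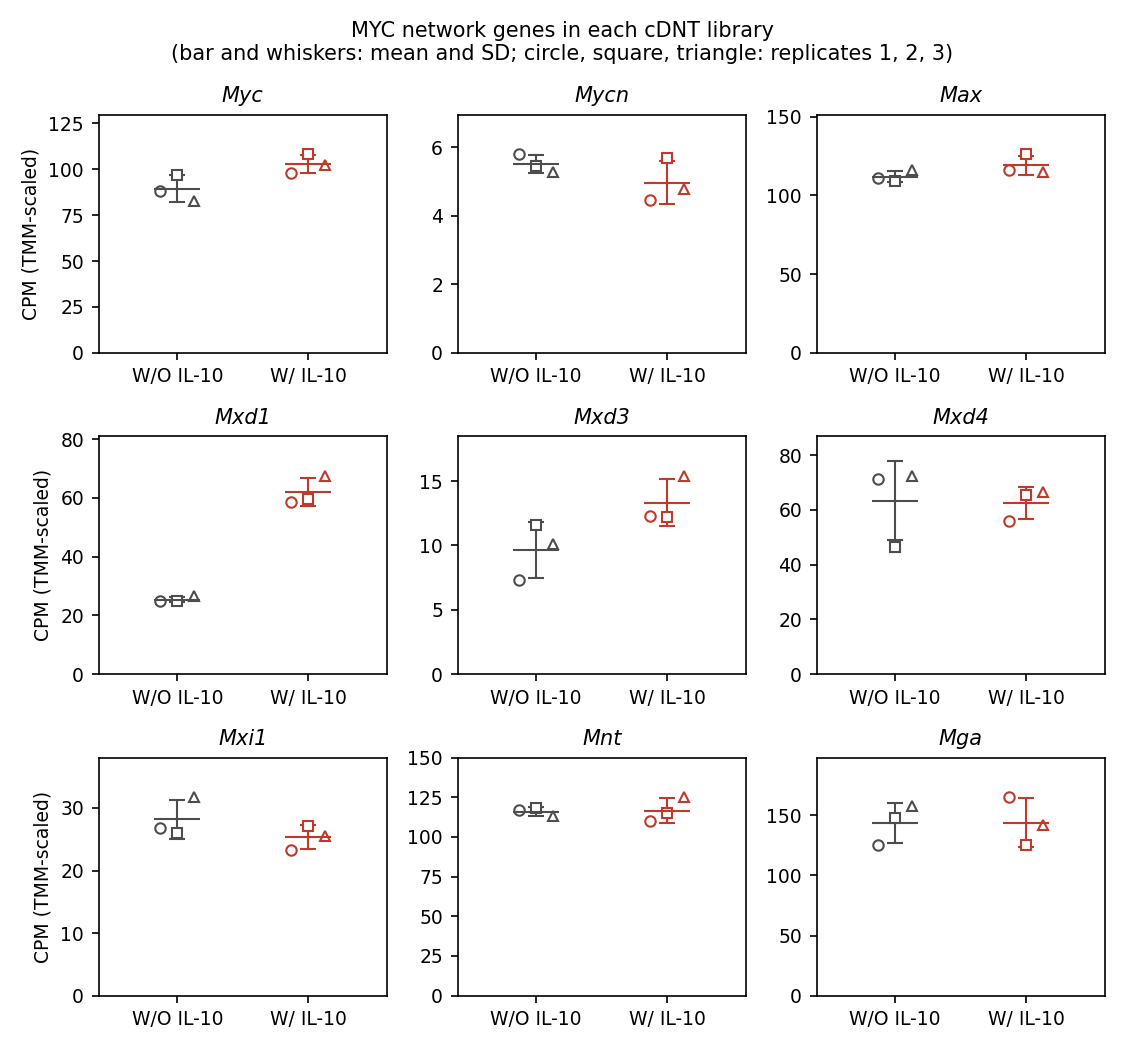
CPM (vertical axes, linear, from 0) of the 9 network genes in each W/O IL-10 (grey) and W/ IL-10 (red) library, with the mean and SD of 3 libraries as bar and whiskers. The Mxd1 libraries sit at 24.8 to 26.6 CPM W/O IL-10 and at 58.6 to 67.5 CPM W/ IL-10, whereas most other members show groups that overlap or nearly touch.

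Among the activators, Myc (ENSMUSG00000022346, chr15:61985391-61990374, plus strand) was at 88.2, 97.1 and 82.5 CPM W/O IL-10 (replicates 1 to 3, in that order here and for every gene) and at 98.1, 108 and 102 CPM W/ IL-10. All libraries with IL-10 stood above all those without it, but the nearest libraries of the 2 groups were almost level. The means were 89.2 ± 7.41 and 103 ± 5.04 CPM (SD, n = 3 each), a log2 difference of 0.20 (SE 0.082, 95% interval 0.016 to 0.39). The unadjusted p was 0.0364 and the adjusted p 0.294 in edgeR, so Myc did not pass. Gene coordinates here are those of GENCODE M21 on GRCm38, and all 9 members are annotated as protein-coding. It passed under 1 of 14 alternatives, the correction for GC content and length together with the replicate number as a block (log2 fold change 0.27, adjusted p = 0.0486, edgeR).

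Mycn (ENSMUSG00000037169, chr12:12936093-12941914, minus strand), the paralog best known from neural tissue and early progenitors, had 92 to 142 counts per library. It was at 5.79, 5.45 and 5.29 CPM W/O IL-10 and 4.46, 5.68 and 4.77 CPM W/ IL-10. The groups overlapped, and the log2 difference was -0.15 (95% interval -0.52 to 0.22, adjusted p = 0.722, edgeR).

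Max (ENSMUSG00000059436, chr12:76937269-76962201, minus strand), the partner shared by all other members, was at 111, 109 and 116 CPM W/O IL-10 and 116, 126 and 115 CPM W/ IL-10. The groups overlapped, with a log2 difference of 0.089 (95% interval -0.073 to 0.25, adjusted p = 0.614, edgeR). The interval lies within a fold change of 1.5 either way.

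Among the MXD repressors, Mxd1 (ENSMUSG00000001156, chr6:86647042-86669161, minus strand) had 608, 603 and 619 counts W/O IL-10 and 1208, 1346 and 1543 counts W/ IL-10. These correspond to 24.8, 24.9 and 26.6 CPM and to 58.6, 59.7 and 67.5 CPM. The W/O IL-10 libraries lay close together, and the lowest W/ IL-10 library was far above the highest of them. The means were 25.5 ± 1.03 and 61.9 ± 4.86 CPM (SD, n = 3 each). The log2 fold change was 1.28 (SE 0.088, 95% interval 1.08 to 1.48, adjusted p = 0.000503, edgeR), or a 2.43-fold difference with an interval of 2.12 to 2.79. Mxd1 ranked 5 of 14916 genes by p, and 22 genes called higher had a larger fold change. Across all 14 alternatives its log2 fold change was 1.22 to 1.34 and its adjusted p at most 0.00729, with each library left out in turn among them. In the annotation, no exon base of Mxd1 lies under another gene and none of its 50-base stretches is shared with another gene.

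Mxd3 (ENSMUSG00000021485, chr13:55325168-55329823, minus strand) is the MXD gene that, unlike Mxd1, is known to be expressed in S phase of proliferating cells. It was at 7.3, 11.6 and 10.1 CPM W/O IL-10 and 12.3, 12.2 and 15.4 CPM W/ IL-10. The groups did not overlap, but 2 W/ IL-10 libraries lay just above the highest W/O IL-10 library. The log2 difference was 0.46 (SE 0.18, 95% interval 0.044 to 0.88, adjusted p = 0.286, edgeR), which did not pass. Without W/O IL-10 replicate 1, the lowest library, it was 0.29. The interval of Mxd3 includes a fold change of 1.5, so a change of that size remains possible. Of its exon bases, 4.4% lie under Prelid1 on the opposite strand, and whether the authors counted by strand is not given in the sources used here.

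Mxd4 (ENSMUSG00000037235, chr5:34173883-34187720, minus strand) was at 71.2, 46.6 and 72.4 CPM W/O IL-10 and 55.8, 65.6 and 66.4 CPM W/ IL-10. The W/O IL-10 group held both the highest and the lowest library, and the W/ IL-10 libraries lay between them. The log2 difference was -0.018 (95% interval -0.38 to 0.35, adjusted p = 0.976, edgeR), and its sign turned under 7 of 14 alternatives.

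Mxi1 (ENSMUSG00000025025, chr19:53310518-53375810, plus strand), a repressor with 3 start windows in RefSeq, was at 26.8, 26 and 31.7 CPM W/O IL-10 and 23.3, 27.1 and 25.5 CPM W/ IL-10. The groups overlapped, and the log2 difference was -0.15 (95% interval -0.40 to 0.092, adjusted p = 0.56, edgeR).

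Mnt and Mga are the larger repressors of the network. Mnt (ENSMUSG00000000282, chr11:74830920-74845725, plus strand) is broadly expressed and is the main counterpart of MYC in most cells. It was at 117, 118 and 113 CPM W/O IL-10 and 110, 115 and 125 CPM W/ IL-10. The W/ IL-10 libraries spread to both sides of the W/O IL-10 libraries, with a log2 difference of 0.011 (95% interval -0.16 to 0.18, adjusted p = 0.964, edgeR). Mga (ENSMUSG00000033943, chr2:119897228-119969581, plus strand) joins the noncanonical Polycomb complex PRC1.6. It was at 125, 148 and 158 CPM W/O IL-10 and 165, 125 and 142 CPM W/ IL-10. The groups overlapped fully, with a log2 difference of 0.0046 (95% interval -0.27 to 0.28, adjusted p = 0.99, edgeR).

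**Figure D2:**
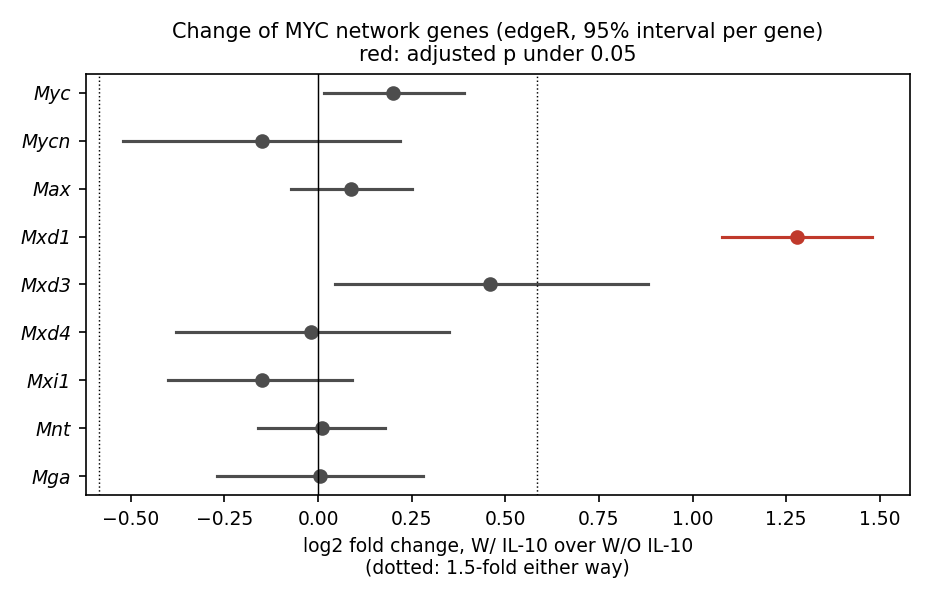
Log2 fold change of each network gene, W/ IL-10 over W/O IL-10, with the 95% interval of edgeR for that gene (horizontal lines) and a fold change of 1.5 either way (dotted). Mxd1 alone lies beyond the dotted line with its whole interval, Mxd3 crosses it, and the other 7 intervals lie inside.

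For 7 members (Myc, Mycn, Max, Mxd4, Mxi1, Mnt and Mga) the whole 95% interval lay within a fold change of 1.5 either way. These intervals are per gene and do not account for the number of members looked at.

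To set activators against repressors, levels were compared between genes as CPM per kb of exon, which depends on the annotated exon length (all isoforms merged). Without IL-10, the order of mean levels was Myc 32.8 ± 2.73, Max 31.1 ± 1.04, Mnt 25 ± 0.616, Mga 9.35 ± 1.1, Mxd4 7.47 ± 1.72, Mxi1 4.13 ± 0.449, Mxd3 4.08 ± 0.922, Mxd1 3.6 ± 0.145 and Mycn 1.67 ± 0.0774 CPM per kb (SD, n = 3 each). Among neighbours in this order, Myc and Max overlapped between libraries, as did Mga and Mxd4, Mxi1 and Mxd3, and Mxd3 and Mxd1. With IL-10, the order was Myc 37.8 ± 1.85, Max 33.1 ± 1.8, Mnt 25.2 ± 1.65, Mga 9.38 ± 1.34, Mxd1 8.76 ± 0.687, Mxd4 7.38 ± 0.701, Mxd3 5.61 ± 0.772, Mxi1 3.71 ± 0.28 and Mycn 1.51 ± 0.191 CPM per kb. Here only Mga and Mxd1 overlapped among neighbours. Mxd1 thus went from the lowest of the 4 MXD genes on average to the highest.

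Mxd1 made up 18.5%, 19.9% and 17.8% of the summed MXD level (Mxd1, Mxd3, Mxd4 and Mxi1, CPM per kb) in the W/O IL-10 libraries, and 35.3%, 33.4% and 34.6% in the W/ IL-10 libraries. The shares were tight within each group and far apart between the groups. Mxi1 made up 20.8% to 21.9% W/O IL-10 and 13.5% to 15.7% W/ IL-10. Mxd4 held 31% to 44.4% W/O IL-10 and 28% to 30.6% W/ IL-10, and Mxd3 16.3% to 27.6% and 20.4% to 23.5%. Since the shares add up to a whole, a larger Mxd1 share lowers the others by construction.

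The ratio of Mxd1 to each other member, taken within a library, did not overlap between the groups for any of the 8 members. The log2 difference ranged from 0.80 (against Mxd3) to 1.44 (against Mycn) and was 1.08 against Myc and 1.19 against Max. Each of the 8 two-sided exact permutation tests gave p = 0.1, the smallest that 3 libraries against 3 allow (0.1 also after Benjamini-Hochberg adjustment over the 8 pairs). These 8 differences share the Mxd1 values, which already separated the groups, so they repeat the Mxd1 change and are not separate evidence.

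**Figure D3:**
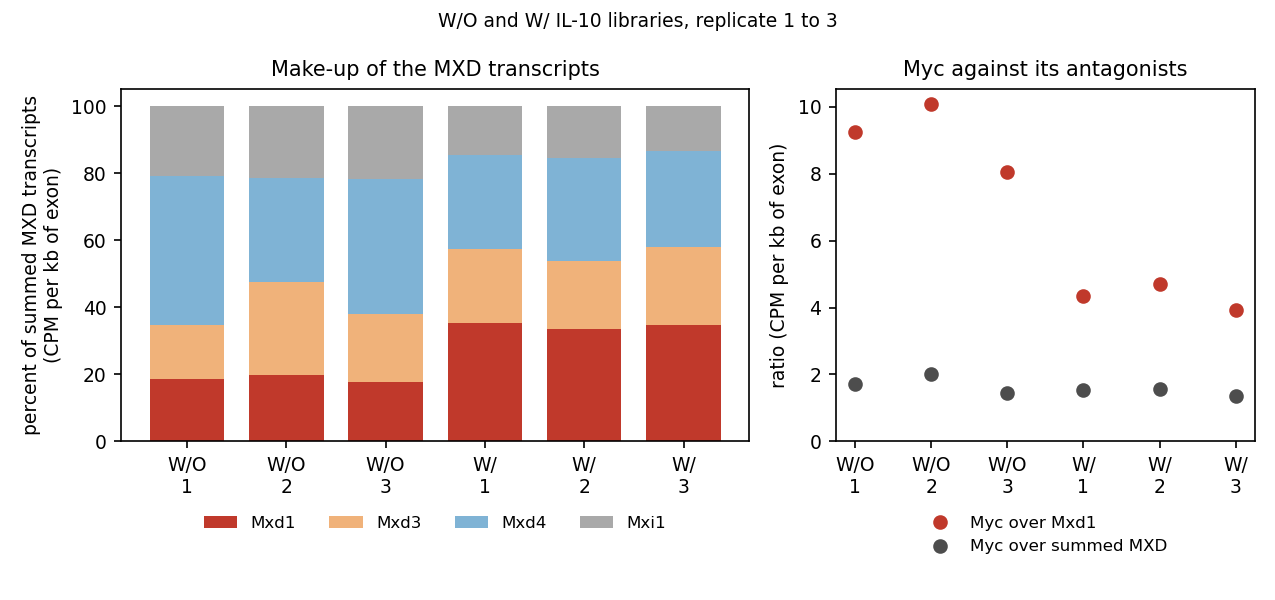
Share of the summed MXD level (percent of CPM per kb of exon, left, bars from 0) held by Mxd1, Mxd3, Mxd4 and Mxi1 in each library, and the ratio of Myc to Mxd1 and to the summed MXD level (right). The Mxd1 share is 17.8% to 19.9% W/O IL-10 and 33.4% to 35.3% W/ IL-10, while the ratio of Myc to the summed MXD level overlaps between the groups.

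The ratio of Myc to Mxd1 was 9.25, 10.1 and 8.06 W/O IL-10 and 4.35, 4.71 and 3.92 W/ IL-10. Myc transcript thus outnumbered Mxd1 in every library, by less W/ IL-10. Against the summed MXD level, the ratio was 1.72, 2.02 and 1.43 W/O IL-10 and 1.54, 1.57 and 1.36 W/ IL-10. Here the groups overlapped, and the difference of the mean log2 ratios, -0.20, was about the spread between libraries (0.19). With Mnt and Mga added to the repressors, the ratio was 0.621, 0.676 and 0.544 W/O IL-10 and 0.622, 0.682 and 0.586 W/ IL-10. The 2 groups covered nearly the same range. The ratio of Max to Myc was 0.847 to 1.06 W/O IL-10 and 0.852 to 0.892 W/ IL-10. The ratio of Myc to all repressor transcripts thus overlapped between the groups, whereas the Mxd1 share of the MXD transcripts did not. Nor did the summed MXD level, at 17.7 to 21.2 CPM per kb W/O IL-10 and 23.5 to 27.6 CPM per kb W/ IL-10. In the same libraries Myc was at 30.3 to 35.8 and 36.1 to 39.8 CPM per kb.

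The MLX branch, a parallel set of factors that dimerize with MLX and share the MXD1 and MNT partners, and MYCL were looked at next. Mlx was at 38.6 to 43.5 CPM and Mlxip at 156 to 187 CPM over all libraries, with log2 differences of -0.022 and -0.037 (adjusted p = 0.928 and 0.885, edgeR). Mycl, with 1 to 10 counts, and Mlxipl, with 2 to 8, were too low to be tested.

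The proteins that carry out repression or activation for the network showed no member past the test. Of 17 corepressor genes (the SIN3 complex, which MXD proteins and MNT recruit, and deacetylases and other corepressors), 0 passed, with a median log2 difference of -0.018 and 2 at an unadjusted p under 0.05. Suds3, a SIN3 subunit, had a log2 difference of -0.19 and the deacetylase gene Hdac2 0.15, neither past the test. Of all 14916 genes tested, 2199 had an unadjusted p under 0.05. Of 16 coactivator genes of MYC, 0 passed and 0 had an unadjusted p under 0.05. Among these were the acetyltransferase Kat2a, the scaffold Trrap and the ATPase Ep400, each with a log2 difference of -0.15. Of 9 partners of MGA in PRC1.6, 0 passed and 2 had an unadjusted p under 0.05. The log2 differences were 0.23 for Tfdp1, the E2F dimerization partner, 0.22 for the heterochromatin protein gene Cbx3 and -0.19 for the ubiquitin ligase gene Ring1.

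MYC protein is short-lived, and a separate list held 18 genes that phosphorylate, ubiquitinate or stabilize it. Of these, 2 rose, beside 1.21% of all genes tested, 0 fell and 16 did not pass, with a median of 0.069. The groups did not overlap in 7 of 18 (38.9%, beside 22.6% of all genes). Both genes that rose encode PIM kinases, which phosphorylate MYC and are classic targets of cytokine signals through STAT factors. Pim2 was at 94.9, 80.6 and 81.1 CPM W/O IL-10 and 239, 236 and 225 CPM W/ IL-10, so that the groups lay far apart. Its log2 fold change was 1.45 (SE 0.086, adjusted p = 0.000248, edgeR). Pim1 was at 287, 254 and 248 CPM W/O IL-10 and 375, 381 and 375 CPM W/ IL-10, again without overlap. Its log2 fold change was 0.52 (SE 0.081, adjusted p = 0.019, edgeR), and this call was lost in 5 of the 6 fits that left out a library (adjusted p of up to 0.112). Pim1 also stands among the IL-10 response genes below. The ubiquitin ligase gene Fbxw7 was at 43.6 to 51 CPM W/O IL-10 and 40 to 43.7 CPM W/ IL-10 (log2 difference -0.18, adjusted p = 0.386, edgeR). No protein level was measured in these data.

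Few genes known as MYC targets passed the test, and 53 of 99 had a positive log2 difference. Of these 99 tested (100 listed, Wdr74 not found in the table), 1 rose, 1 fell and 97 did not pass, and the median log2 difference was 0.0084. At an unadjusted p under 0.05 there were 15, of which 12 were higher and 3 lower, beside 2199 of all 14916 genes (1130 higher and 1069 lower), and the groups did not overlap in 28 (28.3%), beside 22.6% of all genes. The count depended on the processing, from 0 with the replicate block, and 0 to 2 with a library left out, to 9 with the GC and length correction and block. The lists here and above were written from general knowledge.

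The ribosome biogenesis and nucleolar targets, the core of what MYC is known to drive, showed 0 of 34 past the test and 0 at an unadjusted p under 0.05, with log2 differences from -0.18 to 0.23. Npm1 was at 730 to 864 CPM W/O IL-10 and 787 to 971 CPM W/ IL-10, and Ncl at 508 to 842 and 589 to 822 CPM. Both are abundant nucleolar proteins, and for both the groups overlapped. The smallest p values were those of the snoRNP gene Nop58 (0.23, adjusted p = 0.396, edgeR) and the assembly factor genes Grwd1 (-0.18) and Rrp12 (-0.14). Of 15 mitochondrial and chaperone targets, 0 passed and 0 had an unadjusted p under 0.05, among them Hspd1 (0.13), Tfam (0.10) and Pprc1 (-0.082).

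Of 27 metabolic targets, 0 passed and 6 had an unadjusted p under 0.05 (5 higher and 1 lower), beside 2199 of all 14916 genes. The groups did not overlap in 10 of the 27 genes (37%, beside 22.6% of all genes). The median log2 difference was 0.05, and 18 of the 27 were positive. Their summed level was 5672 to 5954 CPM W/O IL-10 and 6165 to 6697 CPM W/ IL-10, without overlap. This sum weights abundant genes most, such as Eno1 (mean 976 CPM W/O IL-10 and 988 CPM W/ IL-10), Ldha (806 and 945 CPM) and Pkm (696 and 827 CPM). None of these abundant genes passed (adjusted p = 0.952, 0.226 and 0.213, edgeR). Odc1, the rate-limiting enzyme of polyamine synthesis and a classic MYC target, was at 327, 295 and 294 CPM W/O IL-10 and 364, 376 and 353 CPM W/ IL-10. The groups did not overlap, and the log2 difference was 0.26 (adjusted p = 0.159, edgeR). The transferrin receptor gene Tfrc was at 95.9, 149 and 143 CPM W/O IL-10 and 209, 170 and 176 CPM W/ IL-10 (log2 difference 0.51, adjusted p = 0.166, edgeR). The sorbitol dehydrogenase gene Sord went the other way, at 25.3, 20.9 and 21.7 CPM W/O IL-10 and 15.9, 18.1 and 14.9 CPM W/ IL-10 (-0.47, adjusted p = 0.0898, edgeR). With the GC and length correction, Odc1, Tfrc and Sord passed in edgeR, with an adjusted p of 0.0261 for Odc1, 0.032 for Tfrc and 0.0453 for Sord.

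The 23 cell cycle and translation targets held both genes that passed, beside 2.19% of all genes tested. At an unadjusted p under 0.05 there were 9 of the 23 (7 higher and 2 lower). Of all 14916 genes, 2199 had such a p (1130 higher and 1069 lower). The groups did not overlap in 10 of 23 (43.5%, beside 22.6% of all genes). E2f2, an E2F factor that drives entry into S phase, was at 21.3, 27.2 and 28.4 CPM W/O IL-10 and 38.2, 38.2 and 37.6 CPM W/ IL-10. The groups did not overlap, and the log2 fold change was 0.57 (SE 0.12, adjusted p = 0.0447, edgeR). Ccnd2, the D-type cyclin that lymphocytes use in G1, was at 271, 273 and 297 CPM W/O IL-10 and 227, 205 and 208 CPM W/ IL-10. It fell by 0.39 on the log2 scale (SE 0.078, adjusted p = 0.0422, edgeR). Each of the 2 calls was lost with the replicate block (adjusted p = 0.0564 and 0.0659) and in 5 of the 6 fits that left out a library (adjusted p of up to 0.197 and 0.208). Cdk4, the kinase partner of D-type cyclins, was at 158 to 172 CPM W/O IL-10 and 150 to 170 CPM W/ IL-10.

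MYC also represses genes together with ZBTB17 (MIZ1), many of them cell cycle inhibitors. The list held such genes and Zbtb17 itself. Of its 10 genes tested (11 listed, Cdkn1c too low), 0 passed and 2 had an unadjusted p under 0.05, beside 2199 of all 14916 genes. The median log2 difference was -0.052. Cdkn2b, which encodes p15, was at 35.2 to 48.3 CPM W/O IL-10 and 31.1 to 32.8 CPM W/ IL-10 (-0.32, adjusted p = 0.273, edgeR). Txnip, an inhibitor of glucose uptake, had -0.19 (adjusted p = 0.327) and Cdkn1a, which encodes p21, -0.11 (adjusted p = 0.56, edgeR). Cdkn1b, which encodes p27, was at 133 to 163 CPM W/O IL-10 and 146 to 163 CPM W/ IL-10.

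**Figure D4:**
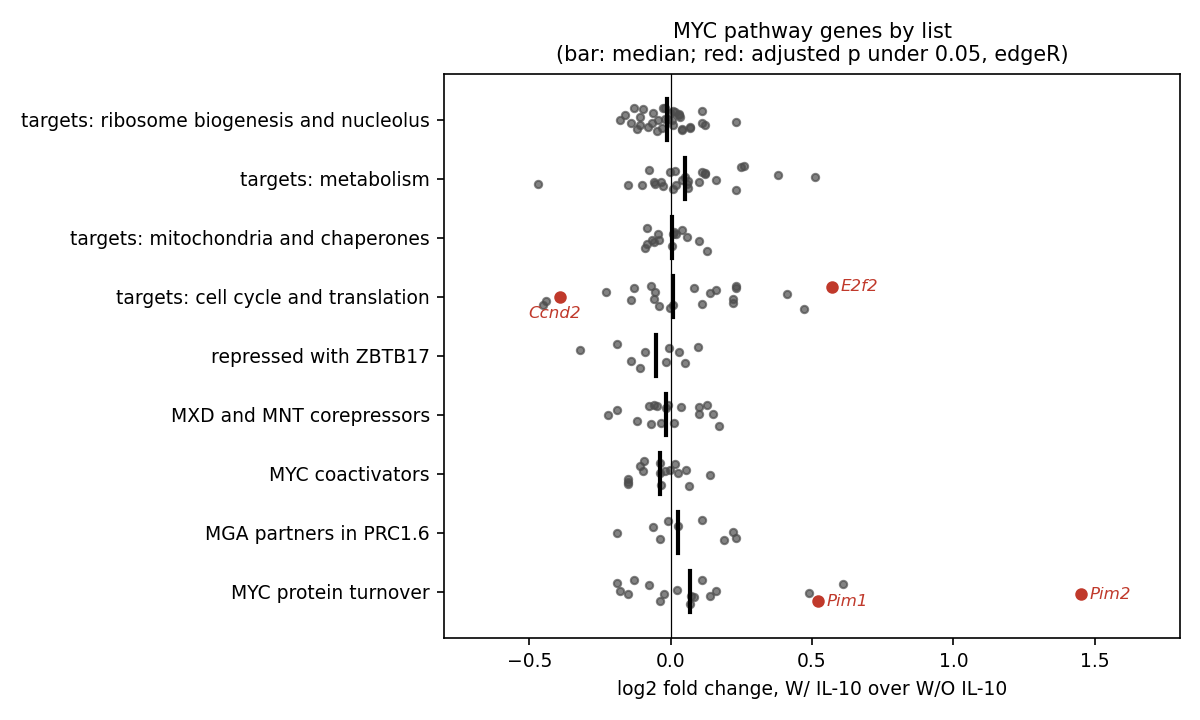
Log2 fold change, W/ IL-10 over W/O IL-10, of every tested gene in 9 lists around the MYC network (points, 1 per gene, spread vertically for display), with the list median as a bar. Points past an adjusted p of 0.05 are red and named, namely E2f2, Ccnd2, Pim1 and Pim2, and all list medians lie close to 0.

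Genes of the IL-10 signal changed in the same comparison. Of 8 genes of the IL-10 signal, 3 rose and 1 fell, beside 1.21% of all genes called higher and 0.979% called lower. Socs3 was at 11.2, 9.54 and 11 CPM W/O IL-10 and 29.2, 40.9 and 42.1 CPM W/ IL-10, and Bcl3 at 19.1, 16.4 and 16.6 and at 54.3, 55.5 and 57.8 CPM. Both were far apart between the groups, as Mxd1 was. The receptor gene Il10ra was at 387, 427 and 442 CPM W/O IL-10 and 205, 221 and 225 CPM W/ IL-10 (log2 fold change -0.95, adjusted p = 0.00122, edgeR). Stat3 was at 342 to 409 and 486 to 511 CPM (0.38, adjusted p = 0.072, edgeR) and did not pass.

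Some genes listed as markers of cell types differed between the groups, and their part in the Mxd1 result was not tested. Among all genes tested, 1.21% were called higher and 0.979% lower. Cd8a (log2 fold change 0.56, adjusted p = 0.0369) and Cd8b1 (0.67, adjusted p = 0.0306, edgeR) rose, for a summed coreceptor level of 130 to 165 CPM W/O IL-10 and 198 to 233 CPM W/ IL-10. Most of the marker calls of this paragraph were not stable. Cd8a and Cd8b1 each lost theirs in 4 of the 6 fits that left out a library, Eomes and Ncr1 each in 5 of 6, Cd5 in 7 of all 14 alternatives and Ccr7 in 6 of 14. Of the 9 T cell markers, 1 fell (Cd5, -0.47, adjusted p = 0.0467, edgeR) and 8 had a positive log2 difference without passing. Of 5 dendritic cell markers tested of 9 listed, Itgax rose (1.09, adjusted p = 0.00383) and Ccr7 fell (-0.63, adjusted p = 0.0364, edgeR), 2 genes that T cells also express. The summed level of the dendritic cell markers was 115 to 145 CPM W/O IL-10 and 112 to 125 CPM W/ IL-10. Ccr7 made most of it (mean 100 and 64.7 CPM) and Itgax less (20.3 and 43.2 CPM), so the sum mixes a fall and a rise. Of the other markers, Xcr1 had 0.60 and Zbtb46 -0.44, neither past the test (adjusted p = 0.184 and 0.212, edgeR). Flt3 was at 0 to 0.306 CPM. Of 7 NK cell markers, 2 fell, Eomes (-0.51, adjusted p = 0.0176) and Ncr1 (-1.15, adjusted p = 0.046, edgeR). Of the other 5, 3 had a positive log2 difference without passing, Itga2 with 0.53, Klre1 with 0.41 and Klra8 with 0.38. The summed NK marker level was 686 to 761 CPM W/O IL-10 and 498 to 558 CPM W/ IL-10, of which Eomes alone made 517 ± 20.6 and 364 ± 16.6 CPM (SD, n = 3 each). Ncr1 was at 6.52 ± 1.35 and 2.95 ± 0.723 CPM, so the sum mostly follows Eomes and does not measure the number of NK cells. Of 6 B cell markers 0 passed, with a sum of 69.8 to 181 and 70 to 122 CPM, and of 4 macrophage markers tested of 7 listed 0 passed, with a sum of 26.7 to 34.5 and 31.1 to 34.4 CPM. Cd68 made most of the macrophage sum, at 20.4 to 23 CPM W/O IL-10 and 25.8 to 29.3 CPM W/ IL-10, without overlap. It was the 1 of these 4 with a positive log2 difference (0.32, adjusted p = 0.159, edgeR). Cd14 had -0.56, also without overlap, and Adgre1 -0.59 (adjusted p = 0.287 and 0.617, edgeR). The macrophage gene Csf1r stayed at or below 0.326 CPM in every library. The listed dendritic cell marker Cd209a was not found in the table. No other listed marker was at 0 in all libraries, but Siglech and Clec9a had at most 1 count in any library.

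Genes whose log2 CPM ran most like that of Mxd1 over the 6 libraries were sought among 10275 genes with a mean of at least 5 CPM, as a description without a test. Because Mxd1 separates the groups, any such likeness largely repeats the group difference. The nearest were Lag3 (Pearson's r 0.9989, mean 187 CPM W/O IL-10 and 407 CPM W/ IL-10), Chst11 (0.9980), Fam20a (0.9974), Jak3 (0.9962) and Dcun1d3 (0.9960). Lag3 is an inhibitory receptor of T cells and Jak3 a kinase of cytokine receptors. Of these 5, Dcun1d3 did not pass the test between the groups (log2 difference 0.20, adjusted p = 0.319, edgeR). For Myc the nearest genes were AI506816 (r 0.9822), Sytl3 (0.9812), Sephs2 (0.9773), Gphn (0.9734) and Pdzd11 (0.9661). None of these 5 passed the test between the groups, with adjusted p from 0.247 to 0.925 (edgeR).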

How the data were processed

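The deposited table gives raw counts (whole numbers) for each gene in 6 libraries, as the authors made them. The labels' processing notes name HISAT2, HTSeq and GRCm38, whereas the paper's methods name TopHat, Cufflinks and UCSC annotation; versions and the strand setting are not given in the sources used here. The labels name a TruSeq kit and the paper a NEBNext kit.

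TMM factors and the quasi-likelihood test were run in edgeR 4.0.16 (R 4.3.3) on the 14916 genes that reached 10 counts in 3 or more libraries, without a block, with Benjamini-Hochberg adjustment. A gene passed at an adjusted p under 0.05. The 95% intervals use the test's own degrees of freedom. Levels between genes are CPM per kb of merged exons (GENCODE M21, in which 29332 of 29393 identifiers were found); within a library their ratios equal those of TPM. Alternatives were DESeq2 1.42.0, upper-quartile factors, no filter, a minimum of 10 counts in all libraries, limma-voom 3.58.1, the replicate block, GC and length correction with splines of 5 degrees of freedom (with and without the block) and each library left out. Scripts were tested on simulated data. Motifs were searched in RefSeq windows.

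The members and lists were chosen with earlier results of these data known. Named genes are all members, up to 4 list genes per direction past the test or else the 3 with the smallest p, and the 5 genes most like Myc and Mxd1. Named outside this rule, after their values were seen, were Fbxw7, Npm1, Ncl, Cdk4, Cdkn1b, Stat3, Cd4, Flt3, Csf1r, Itga2, Klre1, Klra8, Cip2a, Aurka and Plk1. The same holds for Eno1, Ldha, Pkm, Siglech, Clec9a, Xcr1 and Zbtb46. The result for 1 listed gene is not reported here.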

Additional observations from a re-analysis of the deposited data

How the results depend on the processing

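Mxd1 passed in all 14 alternatives. The number of members past the test was 1 in each of them except the GC and length correction with replicate block, which gave 2 (Mxd1 and Myc). The replicate numbers, shared by the labels of both groups, did not pair the libraries (correlations of deviations 0.0524, -0.0573 and 0.114), and the replicate block alone left Mxd1 at 1.28 on the log2 scale (adjusted p = 0.00187, edgeR), with 283 genes past the test in all. Of all genes, 327 passed, against 696 with DESeq2, 1239 with no filter, 514 with the GC and length correction, 835 with that correction and block, and 35 to 512 with a library left out (35 without W/ IL-10 replicate 3). With a fold change of at least 1.5, 217 passed, against 359, 639 and, with correction and block, 332, and 35 to 251 with a library left out. Of the MYC targets 2 passed, against 4 with DESeq2, 7 with no filter, 0 with the replicate block, 6 with the correction, 9 with correction and block, and 0 to 2 with a library left out; why was not tested. The target median (-0.019 to 0.041) and the ratio of Myc to the summed MXD genes (log2 difference -0.32 to -0.077) moved by less than the spread.

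The sign turned for 3 members whose difference was near 0. Mxd4 had 0.0077 with limma-voom, 0.0037 with the block, 0.032 and 0.052 with the correction without and with it, and -0.21 to 0.077 with a library left out. Mnt had -0.007 with upper-quartile factors, -0.0011 with at least 10 counts in every library and -0.042 to 0.051 with a library left out. Mga had -0.00098 with DESeq2, -0.013 with upper-quartile factors, -0.0043 with no filter, -0.0082 with 10 counts in every library, -0.082 and -0.084 with the correction without and with block, and -0.11 to 0.098 with a library left out. With 3 libraries per group, the interval of Mxd3 reached beyond a fold change of 1.5, and Mycn rested on at most 142 counts.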

Other observations

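Several genes around the network were lowest in 1 library of the W/O IL-10 group, a pattern picked out after the values were seen and not tested. Cip2a, which protects MYC from dephosphorylation, was at 17.8 CPM in W/O IL-10 replicate 1, against 42.6 and 42.7 CPM in replicates 2 and 3 and 51.2 to 54 CPM W/ IL-10. The mitotic kinase genes Aurka (21, against 26.9 and 26.9) and Plk1 (33.8, against 49.5 and 46.9 CPM) were also lowest there, as were E2f2 (21.3), Tfrc (95.9) and Mxd3 (7.3 CPM). W/ IL-10, Aurka was at 33.3 to 36.8 and Plk1 at 49.7 to 65.9 CPM. Mxd1 was at 24.8 CPM in that library, level with replicate 2 (24.9 CPM), and its log2 fold change without it was 1.26 (adjusted p = 3.84e-05, edgeR). Without that library the log2 difference was 0.44 for E2f2 (adjusted p = 0.0163), 0.33 for Tfrc (adjusted p = 0.0846) and 0.29 for Mxd3 (adjusted p = 0.428, edgeR), and Myc had 0.18 (adjusted p = 0.367).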
